A study of Mus musculus with 12 samples.

Results

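The AP-1 and small Maf genes described here are Fos, Fosb, Fosl2, Jun, Junb, Jund, Atf3, Maff, Mafk and Mafg. They were chosen by name, with earlier results of these data known. Each is represented by the brightest of its probe sets over the 12 arrays among those whose annotation names that gene alone. All 10 genes were measured, through 14 probe sets, among 18193 genes in the series. Gene expression was measured in bone marrow cultures of female C57BL/6 mice aged 6 weeks. Whole cultures received 1 nM 17βE (17β-estradiol, an estrogen) for 1 week or served as untreated controls, and RNA was then taken from c-kit+ cells (stem cells, per the labels) and from CD44+ cells (stromal cells, per the labels). The 4 groups were c-kit+ 17βE, c-kit+ control, CD44+ 17βE and CD44+ control, with 3 Affymetrix arrays each. All groups share the strain, the sex, the age and the culture, and no allele or transgene is named. Whether replicates came from separate animals or cultures is not stated in the labels. The p-values hence measure only how far these samples spread, and that spread may be technical. In such bulk samples, fewer cells of a type and less RNA per cell cannot be told apart.

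AP-1 is a dimer of basic leucine zipper (bZIP) proteins, built from a Fos and a Jun protein or from Jun proteins alone, that binds a short palindromic site in promoters and enhancers. Many of its genes are immediate early genes, transcribed soon after a stimulus, and its dimers take part in macrophage activation and in osteoclast formation in bone marrow. Atf3 is a stress-induced relative that pairs with Jun proteins. Maff, Mafk and Mafg are small Maf proteins. They lack a transactivation domain of their own, act as repressors when paired with each other, and pair with Nrf2 (Nfe2l2) and its relatives on antioxidant response elements.

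The labelled fractions were checked against defining markers. Kit, the receptor that c-kit+ names, lay between 3.79 and 4.22 on all 12 arrays and averaged 3.94 in c-kit+ 17βE and 3.97 in c-kit+ control arrays, against 3.93 in CD44+ 17βE and 4.01 in CD44+ control arrays. These levels are on the log2 scale, as are all array values below. Y-linked probe sets, which give a background in female mice, reached a mean of at most 4.30 in 12 of 13 cases, so Kit was not seen above background in the c-kit+ fraction. Cd44 lay between 11.76 and 12.46 over both fractions. Cd34, on the stem cell list with Kit, averaged 6.60 in c-kit+ control and 7.88 in CD44+ control arrays. Some macrophage genes were bright in both: Csf1r, the receptor of the macrophage growth factor M-CSF, lay between 13.86 and 14.11, and Lyz2, a macrophage lysozyme, between 13.91 and 14.35. Itgam, on the same list, lay between 6.24 and 8.07. Mertk and Mrc1, also listed, were higher in c-kit+ control than in CD44+ control arrays, by 1.02 and 0.66 (limma adjusted p = 0.0017 and 0.0353). Mesenchymal genes, 9 on the list, had array means of 6.77 to 7.44 in c-kit+ 17βE, 6.59 to 7.07 in c-kit+ control, 8.35 to 9.25 in CD44+ 17βE and 7.89 to 8.80 in CD44+ control arrays. The fractions are therefore called here only by their labels. One array stood apart from its group: c-kit+ control replicate 3 deviated from its group mean by a root mean square of 0.268 over all genes, against 0.123 to 0.191 on the other arrays, and results are given without it where that changes a call.

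Promoters of the genes on which the results turn are shown first, from RefSeq on GRCm38.p6, each from 250 bases before to 50 bases after a transcription start, 5′ to 3′ on the gene's strand. Maff, on chromosome 15 from 79346621 to 79359078, is the gene that passed the test below. The second and the third of its RefSeq starts are shown, on the plus strand at chr15:79347270-79347569 and chr15:79348152-79348451. Fosb had the largest averaged difference without passing, and its promoter is on the minus strand at chr7:19309996-19310295. Fos had next to no averaged difference, and its promoter is on the plus strand at chr12:85473640-85473939. Capitals mark the matches named after the sequences.
Maff, the second start: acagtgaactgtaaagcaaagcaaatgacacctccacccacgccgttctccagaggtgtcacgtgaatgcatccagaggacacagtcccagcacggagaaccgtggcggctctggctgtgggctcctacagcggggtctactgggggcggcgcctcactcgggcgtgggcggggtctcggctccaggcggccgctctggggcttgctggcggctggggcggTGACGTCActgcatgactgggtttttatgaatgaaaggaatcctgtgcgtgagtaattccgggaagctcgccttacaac
Maff, the third start: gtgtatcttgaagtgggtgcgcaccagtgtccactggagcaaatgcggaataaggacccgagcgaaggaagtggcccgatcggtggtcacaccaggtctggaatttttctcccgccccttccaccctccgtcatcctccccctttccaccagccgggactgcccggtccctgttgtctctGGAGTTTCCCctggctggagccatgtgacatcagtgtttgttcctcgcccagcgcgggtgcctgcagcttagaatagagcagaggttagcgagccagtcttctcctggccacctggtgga
Fosb: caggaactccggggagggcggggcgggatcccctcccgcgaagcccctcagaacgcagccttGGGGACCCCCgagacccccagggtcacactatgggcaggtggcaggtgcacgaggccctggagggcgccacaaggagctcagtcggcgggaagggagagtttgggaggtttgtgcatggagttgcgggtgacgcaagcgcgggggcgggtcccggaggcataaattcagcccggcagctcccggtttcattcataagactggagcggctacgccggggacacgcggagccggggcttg
Fos: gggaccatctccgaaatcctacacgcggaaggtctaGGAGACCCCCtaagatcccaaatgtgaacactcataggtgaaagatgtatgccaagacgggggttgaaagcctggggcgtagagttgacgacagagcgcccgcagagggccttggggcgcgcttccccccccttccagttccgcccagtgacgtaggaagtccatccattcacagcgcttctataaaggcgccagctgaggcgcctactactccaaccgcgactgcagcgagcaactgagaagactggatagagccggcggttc
Both strands were searched, over 12 promoters of the 10 genes (Maff has 3 starts) and over all 32851 mouse promoters of the same length. The cyclic AMP response element TGACGTCA, to which Atf and Jun dimers can bind, stood in 1.79% of all promoters and in 1 of the 12, that of Maff's second start, at positions -29 to -22 before the start. A kappaB site, the site of NF-kappaB, stood in 8.46% of all promoters and in 4 of the 12. These were the third start of Maff at -70 to -61, Fosb at -188 to -179, Fos at -214 to -205 and Fosl2 with overlapping matches between -182 and -172. The AP-1 site TGANTCA stood in 7.81% of all promoters and in 0 of the 12. The Maf recognition element TGCTGANTCAGCA, which holds TGANTCA within it, the estrogen response element GGTCANNNTGACC and the CArG box of serum response factor stood in 0.00609%, 0.07% and 1.63% of all promoters and in 0 of the 12. A match describes these letters only, and a missing match says only that they are not in this window.

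**Figure D1:**
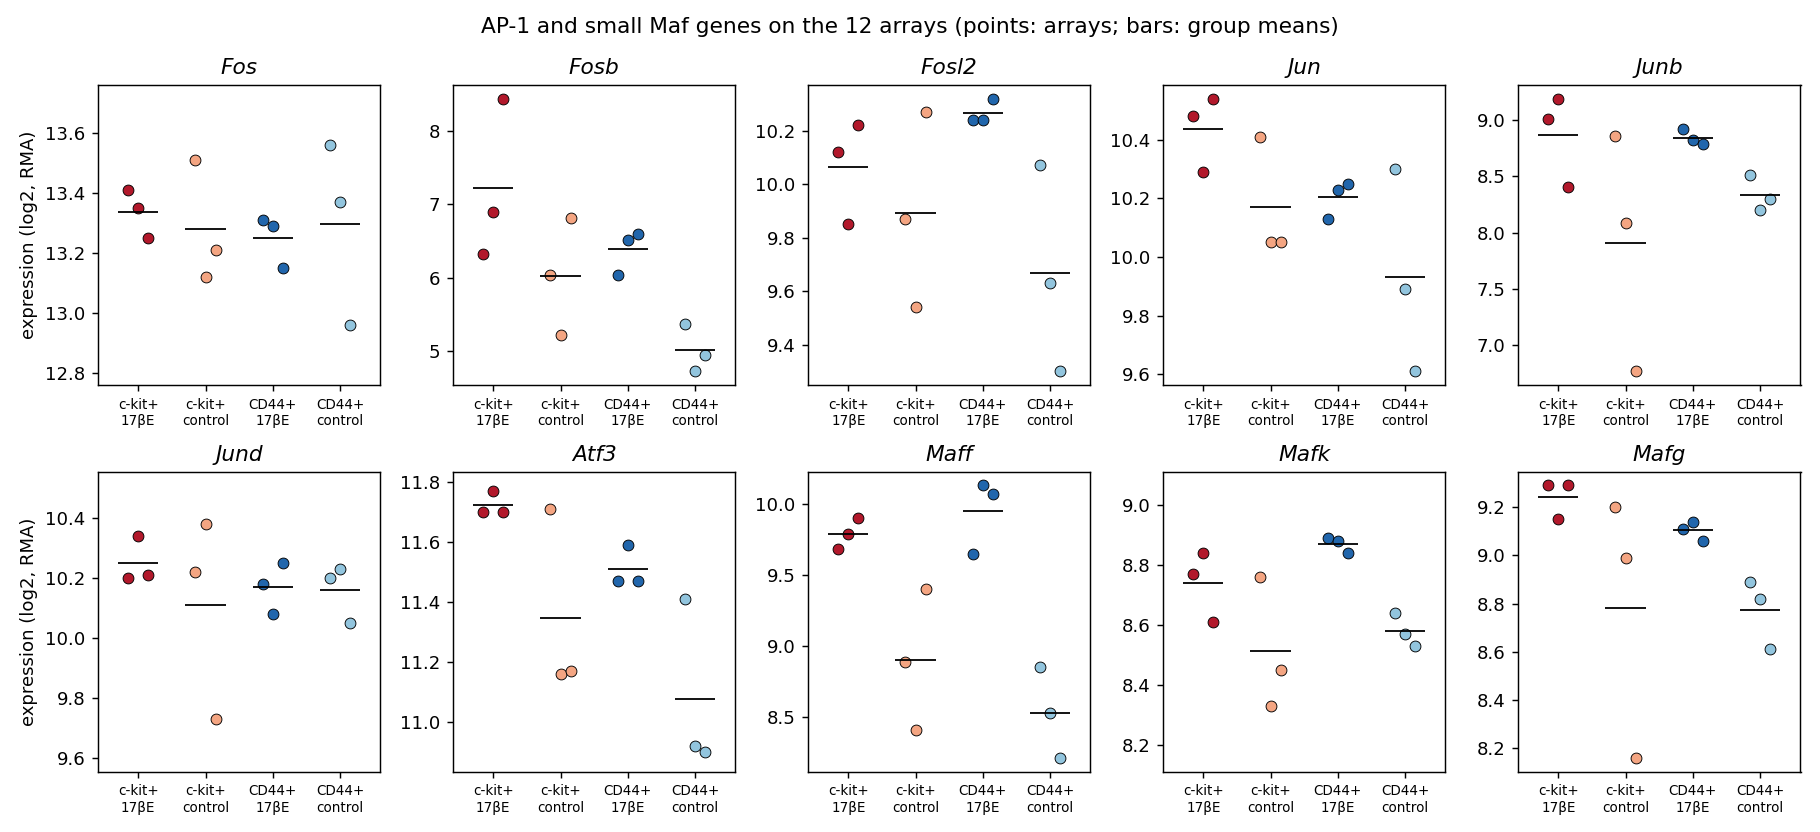
Expression (log2, RMA) of the 10 genes on the 12 arrays. Points are arrays, bars are means of 3 arrays, and each panel has its own vertical range, at least 1 unit long. Maff lies higher on every 17βE array than on any control array, whereas Fos lies between 12.96 and 13.56 throughout.

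The question put to the groups is which genes 17βE moves in each fraction. Of the 10 genes, Maff rose with 17βE in CD44+ cells, 2.67-fold, and in the mean over both fractions, 2.22-fold, and no gene fell. Fosb had the largest averaged difference, 1.29, which did not pass (adjusted p = 0.129). It passed in 4 of the 23 alternative fits described below. Among these were blocking on replicate number (0.0409) and leaving out c-kit+ control replicate 3 (0.0265). Fos and Jund differed by 0.01 and 0.07 in the mean over both fractions. The remaining 6 genes had averaged differences of 0.26 to 0.74, none of which passed the threshold of 0.05 on the adjusted p of limma. By fraction, limma called 0 of the 10 genes in c-kit+ cells, where 0.181% of all genes were called. At an unadjusted p under 0.05 it gave 5 of 10 there, all higher, against 3.07% of all genes. It called 1 of 10 in CD44+ cells, where 0.291% of all genes were called, with 5 of 10 at an unadjusted p under 0.05, against 3.69% of all genes higher. In the mean over both fractions it called 1 of 10, where 0.951% of all genes were called, with 8 of 10 at an unadjusted p under 0.05, against 4.85% of all genes higher. The mean over both fractions uses all 12 arrays of the other comparisons, and arrays of the fractions may come from the same cultures, which the labels do not state. Since the 10 genes were chosen with earlier results of these data known, their counts and medians against those of all genes are descriptions.

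The medians of the 10 differences were 0.32 in c-kit+ cells, 0.38 in CD44+ cells and 0.39 in the mean, against 0.02, 0.01 and 0.01 over all genes. Differences above 0 were found for 10 of 10 genes in c-kit+ cells (55.1% of all genes), 9 of 10 in CD44+ cells (53.2%) and 10 of 10 in the mean (55.7%). In c-kit+ cells Maff was the only one of the 10 whose 17βE arrays all lay above the control arrays, where 5.34% of all genes did so. In CD44+ cells 7 of the 10 did, namely Fosb, Fosl2, Junb, Atf3, Maff, Mafk and Mafg, where 6.75% of all genes did so. In both fractions, each taken by itself, Maff alone of the 10 had every 17βE array above every control array, as did 1.49% of all genes.

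**Figure D2:**
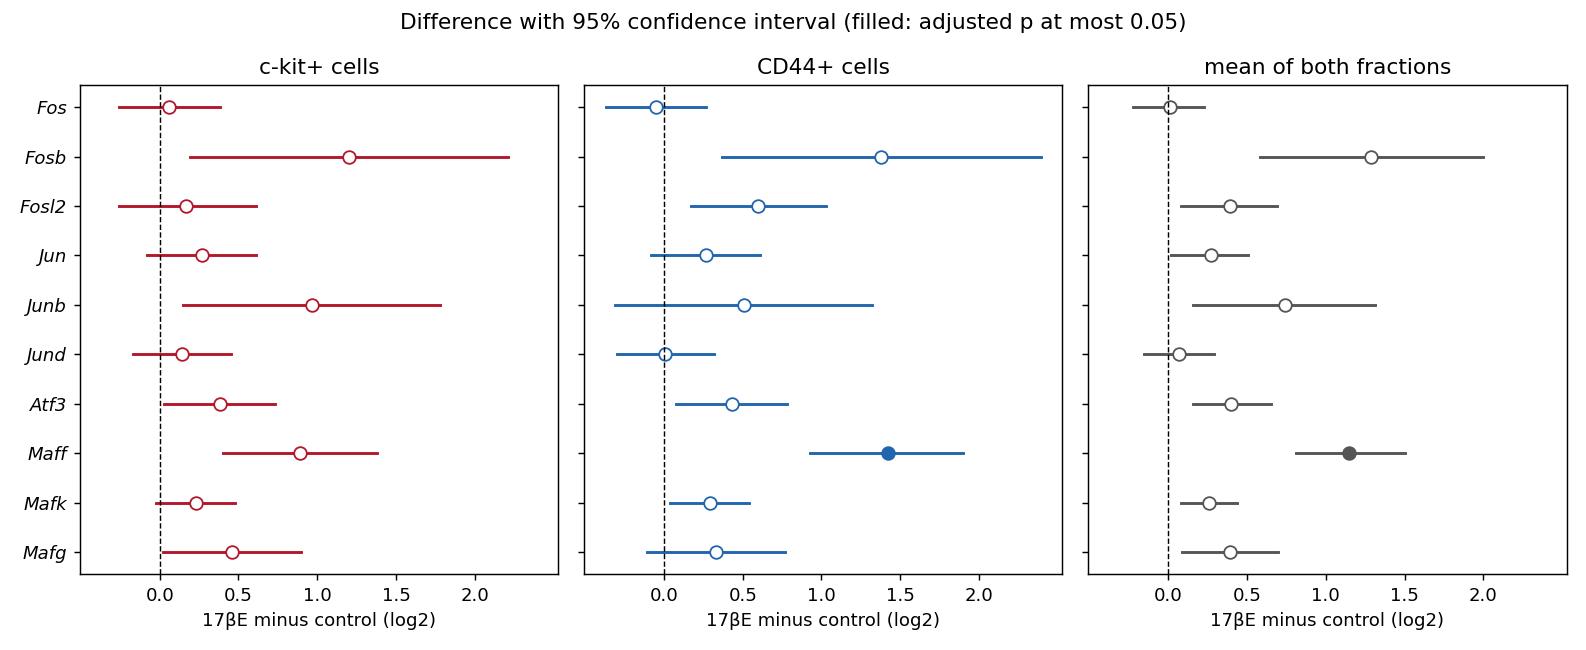
Difference between 17βE and control (log2) with its 95% confidence interval for each gene in c-kit+ cells, in CD44+ cells and in the mean of both fractions. Filled points passed an adjusted p of 0.05: Maff in CD44+ cells (1.42) and in the mean (1.15), and the intervals of Fosb and Junb are the widest.

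Among the Fos proteins, Fos itself, the founding member of AP-1 and required for osteoclast formation in mice, was bright on every array (probe set 1423100_at). It had 13.41, 13.35 and 13.25 in c-kit+ 17βE arrays, against 13.51, 13.12 and 13.21 in c-kit+ control arrays. In CD44+ 17βE arrays it had 13.31, 13.29 and 13.15, against 13.56, 13.37 and 12.96 in CD44+ control arrays. In both fractions the groups overlapped, and the 17βE arrays lay inside the range of the control arrays. The averaged difference was 0.01, with a 95% interval of -0.22 to 0.23 (adjusted p = 0.996). The highest value of any probe set on these arrays was between 14.56 and 14.81.

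Fosb, which pairs with Jun proteins as Fos does and is best known from stimulated neurons and bone-forming cells, was the most variable of the 10 (probe set 1422134_at). In c-kit+ cells it had 6.32, 6.89 and 8.44 in 17βE arrays, against 6.03, 5.21 and 6.81 in control arrays. The highest c-kit+ control array lay above the lowest c-kit+ 17βE array, so the groups overlapped. The CD44+ cells had 6.04, 6.51 and 6.60 in 17βE arrays, against 5.36, 4.72 and 4.94 in control arrays, with no overlap. These control values lay not far above the Y-linked background, a mean of at most 4.30 in 12 of 13 probe sets. The difference was 1.2 in c-kit+ cells (SE 0.47, adjusted p = 0.924) and 1.38 in CD44+ cells (SE 0.47, adjusted p = 0.584). In the mean over both fractions it was 1.29 (SE 0.33, 95% interval 0.58 to 2.00, adjusted p = 0.129), and without c-kit+ control replicate 3 it was 1.49 and passed (adjusted p = 0.0265, over all alternatives 0.0043 to 0.34). With the replicate number as a block it also passed (adjusted p = 0.0409), whereas on 1 value per replicate number, averaged over the fractions, it did not (0.219). Without c-kit+ 17βE replicate 3, the array at 8.44, the c-kit+ difference was 0.59. The c-kit+ control array left out there had the highest Fosb value of its group.

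Fosl2, the Fos-related antigen Fra-2, lacks the strong transactivation domain of Fos. Its brighter probe set, 1437247_at, had 10.12, 9.85 and 10.22 in c-kit+ 17βE arrays, against 9.87, 9.54 and 10.27 in c-kit+ control arrays. It had 10.24, 10.24 and 10.32 in CD44+ 17βE arrays, against 10.07, 9.63 and 9.30 in CD44+ control arrays. The groups overlapped in c-kit+ cells and not in CD44+ cells, where the difference was 0.60 (SE 0.20, adjusted p = 0.57). The dimmer probe set of Fosl2, 1422931_at, lay between 6.44 and 6.89 and differed by 0.13 in c-kit+ cells and by -0.03 in CD44+ cells, so the probe sets disagree on the size of the CD44+ difference.

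Among the Jun proteins, Jun, the partner of Fos in the classical AP-1 dimer, was read by probe sets 1448694_at and 1417409_at. The brighter, 1448694_at, had 10.48, 10.29 and 10.54 in c-kit+ 17βE arrays, against 10.41, 10.05 and 10.05 in c-kit+ control arrays. In CD44+ 17βE arrays it had 10.13, 10.23 and 10.25, against 10.30, 9.89 and 9.61 in CD44+ control arrays. In each fraction the highest control array overlapped the 17βE arrays, and the difference was 0.27 in c-kit+ cells and 0.27 in CD44+ cells. The second probe set differed by 0.36 in c-kit+ cells and 0.35 in CD44+ cells.

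Junb, a Jun protein that can restrain Jun and is needed for full macrophage activation, varied most in c-kit+ cells (probe set 1415899_at). It had 9.01, 9.19 and 8.41 in c-kit+ 17βE arrays, against 8.86, 8.09 and 6.77 in c-kit+ control arrays. The lowest of these, 6.77, is c-kit+ control replicate 3, the array that stood apart, and the highest c-kit+ control array lay within the 17βE arrays. The CD44+ cells had 8.92, 8.82 and 8.79 in 17βE arrays, against 8.51, 8.20 and 8.30 in control arrays, with no overlap. The difference was 0.97 in c-kit+ cells (SE 0.38, adjusted p = 0.931) and 0.51 in CD44+ cells (SE 0.38, 95% interval -0.31 to 1.32). Without c-kit+ control replicate 3 the c-kit+ difference was 0.40.

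Jund, the most constitutively expressed Jun protein, had its bright probe set, 1449117_at, between 9.73 and 10.38 on the 12 arrays. It had 10.20, 10.34 and 10.21 in c-kit+ 17βE arrays, against 10.22, 10.38 and 9.73 in c-kit+ control arrays. In CD44+ cells it had 10.18, 10.08 and 10.25 in 17βE arrays, against 10.20, 10.23 and 10.05 in control arrays, and the groups overlapped in both fractions. The averaged difference was 0.07 (95% interval -0.15 to 0.29, adjusted p = 0.982). Its other probe set, 1440265_at, lay between 3.75 and 4.20, at the level of the Y-linked background.

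Atf3, which represses inflammatory genes in stimulated macrophages, was read by 1 probe set, 1449363_at. In c-kit+ cells it had 11.70, 11.77 and 11.70 in 17βE arrays, against 11.71, 11.16 and 11.17 in control arrays. Among CD44+ arrays it had 11.47, 11.59 and 11.47 in 17βE arrays, against 11.41, 10.92 and 10.90 in control arrays. In each fraction control replicate 1 lay near the 17βE arrays, within their range in c-kit+ cells and just below them in CD44+ cells, and the other control arrays lay lower. The difference was 0.38 in c-kit+ cells and 0.43 in CD44+ cells, and 0.40 in the mean (adjusted p = 0.195). The call changed with those arrays: without c-kit+ control replicate 1 the mean passed at an adjusted p of 0.0387, and without CD44+ control replicate 1 at 0.0474. Over all alternatives it lay between 0.0299 and 0.56.

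Among the small Maf genes, Maff, the one most often reported as induced by inflammatory stimuli, rose with 17βE (probe set 1418936_at). Its CD44+ values were 9.65, 10.13 and 10.07 in 17βE arrays, against 8.85, 8.53 and 8.21 in control arrays. In c-kit+ cells it had 9.68, 9.79 and 9.90 in 17βE arrays, against 8.89, 8.41 and 9.40 in control arrays. All 6 arrays of 17βE cultures, the lowest at 9.65, lay above all 6 control arrays, the highest at 9.40.

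In CD44+ cells Maff averaged 9.95 ± 0.26 in 17βE arrays and 8.53 ± 0.32 in control arrays (SD, n = 3 each), a difference of 1.42 (SE 0.23, 95% interval 0.93 to 1.90, limma adjusted p = 0.0155). This call was lost when CD44+ 17βE replicate 2 (adjusted p = 0.112), CD44+ 17βE replicate 3 (0.123), CD44+ control replicate 2 (0.0816) or CD44+ control replicate 3 (0.115) was left out, and over all 23 alternatives the difference was 1.26 to 1.58 and the adjusted p 2.2e-05 to 0.123. In c-kit+ cells Maff averaged 9.79 ± 0.11 in 17βE arrays and 8.90 ± 0.49 in control arrays, a difference of 0.89 (SE 0.23, 95% interval 0.40 to 1.38, 1.85-fold), which did not pass (adjusted p = 0.299). Without c-kit+ control replicate 3 it was 1.14 and passed (adjusted p = 0.0312, over all alternatives 0.0312 to 0.87). That array had the highest Maff value of its group, 9.40. Without c-kit+ control replicate 2, the lowest at 8.41, the difference was 0.64 and did not pass (adjusted p = 0.596). In the mean over both fractions Maff differed by 1.15 (SE 0.16, 95% interval 0.81 to 1.5, adjusted p = 0.0024), higher on 6 of 6 17βE arrays. That comparison passed in all 23 alternatives run for it, with differences of 1.03 to 1.28 and adjusted p of 3.2e-05 to 0.0133. The threshold of 0.1 among them repeats the main fit. The alternatives also include a fit on 1 value per replicate number, averaged over the fractions, 3 against 3 (adjusted p = 0.00469).

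Other markers moved beside Maff. Cd83, on the list of dendritic cell markers and also known from activated macrophages, rose by 1.05 in the mean over both fractions (adjusted p = 0.00299), the only one of the 6 on its list to pass. Array means of that list were 8.16 to 8.54 in c-kit+ 17βE and 7.60 to 8.13 in c-kit+ control arrays, and 8.71 to 8.84 in CD44+ 17βE and 8.35 to 8.66 in CD44+ control arrays. Macrophage list means were 11.96 to 12.28 in c-kit+ 17βE and 12.01 to 12.13 in c-kit+ control arrays, and 11.84 to 12 in CD44+ 17βE and 11.62 to 11.86 in CD44+ control arrays. The macrophage gene Cd14, the lipopolysaccharide co-receptor, was the only one of its 8 that passed, at 0.43 (adjusted p = 0.0148). Of the 9 mesenchymal genes limma called 0 in the mean, where 0.951% of all genes were called. Their median was 0.37, and 8 lay above 0, as did 55.7% of all genes. At an unadjusted p under 0.05 in either direction there were 3, against 4.85% of all genes higher. Of the mesenchymal genes, Vcam1, an adhesion molecule, differed by 0.97 (adjusted p = 0.179) and Pdgfrb, a platelet-derived growth factor receptor, by 0.78 (0.751). The part of cell makeup in the Maff result was not tested. The Gapdh probe sets, whose 3′ minus 5′ difference grows with RNA degradation and with amplification, gave 4.23 to 6.17 in c-kit+ 17βE, 4.62 to 5.35 in c-kit+ control, 3.32 to 4.31 in CD44+ 17βE and 2.83 to 4.14 in CD44+ control arrays. With this measure as a covariate, Maff in the mean had an adjusted p of 0.00366, and Fosb then passed (0.0457).

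Mafk, the small Maf protein first found as the partner of the erythroid factor NF-E2, varied least of the 10. It had 8.77, 8.84 and 8.61 in c-kit+ 17βE arrays, against 8.76, 8.33 and 8.45 in c-kit+ control arrays. It had 8.89, 8.88 and 8.84 in CD44+ 17βE arrays, against 8.64, 8.57 and 8.53 in CD44+ control arrays. The groups overlapped in c-kit+ cells and not in CD44+ cells, and the averaged difference was 0.26 (adjusted p = 0.304).

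Mafg, like Maff and Mafk a partner of Nrf2 and itself a target of Nrf2, was read by probe sets 1434054_at and 1448916_at. The brighter, 1434054_at, had 9.29, 9.15 and 9.29 in c-kit+ 17βE arrays, against 9.20, 8.99 and 8.16 in c-kit+ control arrays. In CD44+ cells it had 9.11, 9.14 and 9.06 in 17βE arrays, against 8.89, 8.82 and 8.61 in control arrays. The groups were apart in CD44+ cells only, and the lowest value, 8.16, was again c-kit+ control replicate 3. The averaged difference was 0.39 (adjusted p = 0.461). The second probe set differed by 0.08 in c-kit+ cells, against 0.46 for the brighter one, and by 0.26 in CD44+ cells, against 0.33. Without c-kit+ control replicate 3 the brighter one differed by 0.15 in c-kit+ cells.

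The 10 genes also differed in how far replicates lay apart. The pooled standard deviation within groups was 0.71 for Fosb, 0.57 for Junb and 0.33 for Maff, between 0.19 and 0.29 for Mafg, Fosl2, Jun, Atf3, Fos and Jund, and 0.13 for Mafk, against a median of 0.16 over all genes. In c-kit+ cells the 3 control arrays varied more than the 3 17βE arrays for 9 of 10 genes, Fosb being the exception, where this was so for 57.2% of all genes. In CD44+ cells it was so for 10 of 10, against 60.1% of all genes. CD44+ control replicate 1 was the highest of its group for 9 of 10 genes, all but Jund, against 41.9% of all genes. CD44+ control replicate 3 was the lowest for 8 of 10, against 45.1% of all genes. In the c-kit+ control group replicate 1 was the highest for 6 of 10, against 31.7% of all genes, and replicate 3 the lowest for 4 of 10, against 43.5%. These counts describe arrays, carry no test, and the genes are not independent of one another.

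**Figure D3:**
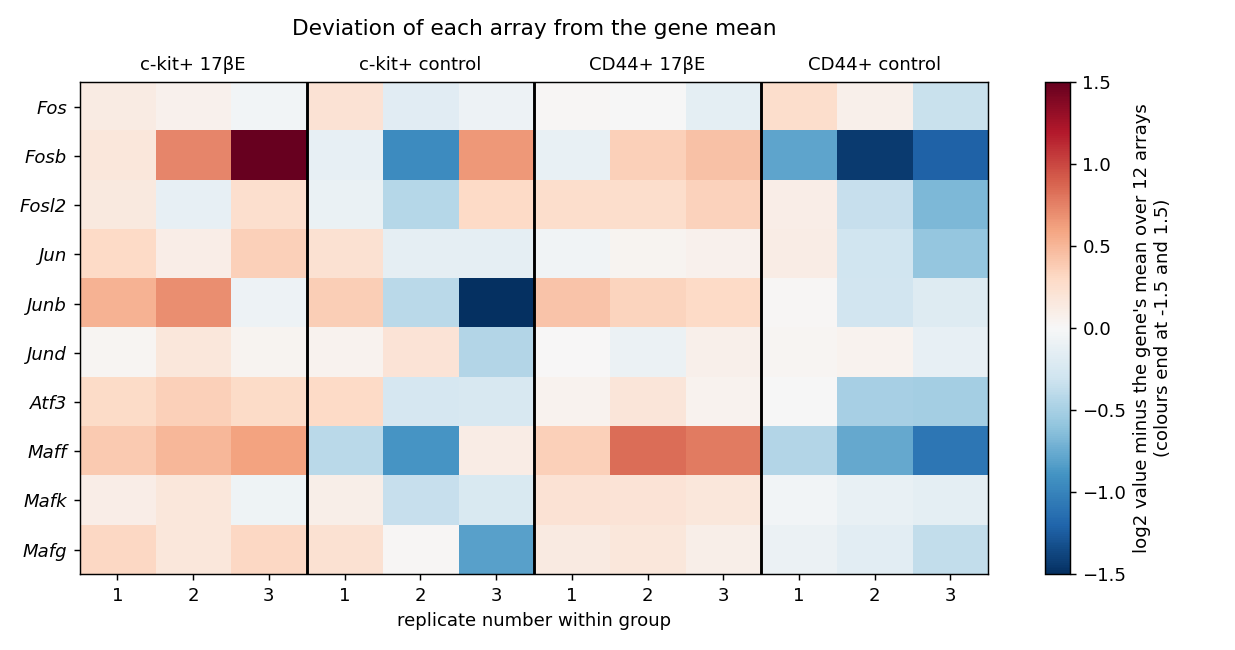
Deviation of each array from the gene's mean over the 12 arrays (log2, red above and blue below, colours ending at -1.5 and 1.5) for the 10 genes. CD44+ control replicates 2 and 3 are low for most genes, and c-kit+ control replicate 3 is low for Junb and Mafg but not for Maff or Fosb.

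The difference between the 17βE effects in the fractions, c-kit+ minus CD44+, asks whether a gene responded unequally. It shares all its arrays with the effects above. Limma called 0 of 10 genes, where 0.0% of all genes were called, and 0 of 10 had an unadjusted p under 0.05, against 1.63% of all genes. For Maff the effect in c-kit+ cells was lower than that in CD44+ cells by a difference of -0.53 (SE 0.32), with a 95% interval of -1.22 to 0.16. For Fosb the difference of effects was -0.18 (95% interval -1.60 to 1.25) and for Junb 0.46 (95% interval -0.69 to 1.62). These intervals are wide, and they do not show that the fractions responded alike.

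Levels were then compared between the fractions, c-kit+ minus CD44+, in arrays that the 17βE comparisons also use. In control cultures limma called 0 of 10 genes, where 2.3% of all genes were called, and 0 of 10 had an unadjusted p under 0.05, against 13.6% of all genes. In 17βE cultures it called 0 of 10, where 2.65% of all genes were called, again with 0 at an unadjusted p under 0.05, against 9.77% of all genes. Fosb had the largest difference of the 10 in both. It averaged 6.02 ± 0.80 in c-kit+ control and 5.01 ± 0.32 in CD44+ control arrays (SD, n = 3 each), a difference of 1.01 (SE 0.47, adjusted p = 0.369). In 17βE cultures it averaged 7.22 ± 1.10 in c-kit+ and 6.39 ± 0.30 in CD44+ arrays, a difference of 0.83. That difference rested on c-kit+ 17βE replicate 3: without it Fosb differed by 0.22 and Junb, at 0.26, by more. In the same cultures Jun, Atf3 and Mafg were higher on every c-kit+ array than on any CD44+ array (10.0% of all genes were), and Fosl2 was lower (8.15% were). In control cultures the arrays overlapped for all 10 genes, where 7.41% of all genes were higher and 8.33% lower on every c-kit+ array. Across the 4 groups, Maff averaged 9.95 in CD44+ 17βE, 9.79 in c-kit+ 17βE, 8.90 in c-kit+ control and 8.53 in CD44+ control arrays. The groups next to each other overlapped within each culture condition, and the step between the conditions was free of overlap.

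Genes around these factors were read from lists, which were chosen with earlier results of these data known. In the mean over both fractions 0.951% of all genes were called, and 4.85% were higher at an unadjusted p under 0.05. In c-kit+ cells these shares were 0.181% and 3.07%, and in CD44+ cells 0.291% and 3.69%. List counts at an unadjusted p include both directions. Of 18 other bZIP factors measured, Jdp2, a repressor that pairs with Jun, rose in the mean over both fractions by 0.63 (SE 0.13, 1.55-fold, adjusted p = 0.0405) and none fell. It averaged 8.94 in c-kit+ 17βE and 8.14 in c-kit+ control arrays, and 9.31 in CD44+ 17βE and 8.84 in CD44+ control arrays. Cebpb, a bZIP factor of myeloid cells, differed by 0.76 (adjusted p = 0.146), and Nfe2l1 and Nfe2l2, partners of the small Maf proteins, by 0.47 (0.14) and 0.49 (0.169), none of which passed. The list's median was 0.12. In either fraction alone 0 of the 18 passed, with 4 in c-kit+ and 6 in CD44+ cells at an unadjusted p under 0.05. Of 23 genes of the MAP kinase route, which phosphorylates AP-1 proteins and switches on their genes, limma called 0 in the mean, with 2 at an unadjusted p under 0.05 and a median of 0.04. These were Mapkapk2, a kinase downstream of p38, and Map3k8, a kinase of the lipopolysaccharide response, each with a difference of 0.51.

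Among 20 other immediate early genes, 3 rose in the mean and none fell, where 0.951% of all genes were called. Their median was 0.45, and 14 had an unadjusted p under 0.05 in either direction, against 4.85% of all genes higher. Socs3, a feedback inhibitor of cytokine receptors, averaged 12.66 in c-kit+ 17βE and 11.89 in c-kit+ control arrays, and 12.72 in CD44+ 17βE and 11.96 in CD44+ control arrays, a difference of 0.76 (SE 0.10, adjusted p = 0.00121). It also passed in c-kit+ cells (0.77, adjusted p = 0.0469) and in CD44+ cells (0.75, adjusted p = 0.0355). Egr2, a zinc finger factor of myeloid cells, rose by 0.74 (adjusted p = 0.0191) and Ier3, a regulator of cell survival, by 0.40 (adjusted p = 0.0247). Nr4a1, an orphan nuclear receptor, differed by 0.74 and did not pass (adjusted p = 0.0565).

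Of 17 genes known as AP-1 targets, 4 rose in the mean and none fell, where 0.951% of all genes were called. The list's median was 0.25. Il6, a cytokine of inflammation and bone loss, averaged 6.70 in c-kit+ 17βE and 4.04 in c-kit+ control arrays, and 6.18 in CD44+ 17βE and 4.21 in CD44+ control arrays, a difference of 2.32 (SE 0.19, adjusted p = 4.5e-05). Its control means lay at the level of the Y-linked background, so no fold is given. Ptgs2, the inducible cyclooxygenase, rose by 1.37 (SE 0.11, 2.59-fold), Csf2, the growth factor GM-CSF, by 0.75 (adjusted p = 0.00338), and Plaur, the urokinase receptor, by 0.45 (adjusted p = 0.0307). In single fractions 3 of the 17 rose in c-kit+ cells (Il6, Ptgs2 and Csf2), where 0.181% of all genes were called. In CD44+ cells, where 0.291% of all genes were called, 2 rose (Il6 and Ptgs2). Collagenase and other matrix protease genes on the list did not pass.

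Of 13 genes with antioxidant response elements bound by Nrf2 and small Maf proteins, limma called 0 in the mean (0.951% of all genes). Their median was 0.24, and 5 had an unadjusted p under 0.05 in either direction, against 4.85% of all genes higher. Slc7a11, the cystine transporter, had the smallest p. It averaged 7.74 in c-kit+ 17βE and 6.58 in c-kit+ control arrays, and 7.71 in CD44+ 17βE and 6.87 in CD44+ control arrays, a difference of 1.00 (SE 0.23, adjusted p = 0.0716). Nqo1, a quinone reductase, and Gsr, glutathione reductase, each differed by 0.33. Mafg itself stands on this list.

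Some genes of these lists differed between the fractions. Timp1, an inhibitor of matrix proteases and an AP-1 target, averaged 5.89 in c-kit+ control and 8.56 in CD44+ control arrays, a difference of -2.67 (adjusted p = 0.000475). Where 2.3% of all genes were called, 4 of the 20 other immediate early genes were lower in c-kit+ control than in CD44+ control arrays. They were Ccn1, a matrix protein of fibroblasts (-1.72, adjusted p = 0.000763), the heat shock gene Hspa1b (-1.51, 0.000475), and the Krüppel-like factors Klf4 (-0.97, 0.0184) and Klf2 (-0.75, 0.0482). In 17βE cultures, where 2.65% of all genes were called, 3 were lower, namely Ccn1, Hspa1b and Klf4. There Klf2 averaged 7.94 in c-kit+ and 7.97 in CD44+ arrays. The difference of 17βE effects on Klf2, 0.73, did not pass (adjusted p = 1.0). The mesenchymal list moved with them, as given above: its collagen gene Col1a2 averaged 7.52 in c-kit+ control and 10.89 in CD44+ control arrays, and its part in these differences was not tested. The Gapdh measure also lay higher in all c-kit+ control than in all CD44+ control arrays, and with it as a covariate 254 genes were called between them, against 418 without it.

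**Figure D4:**
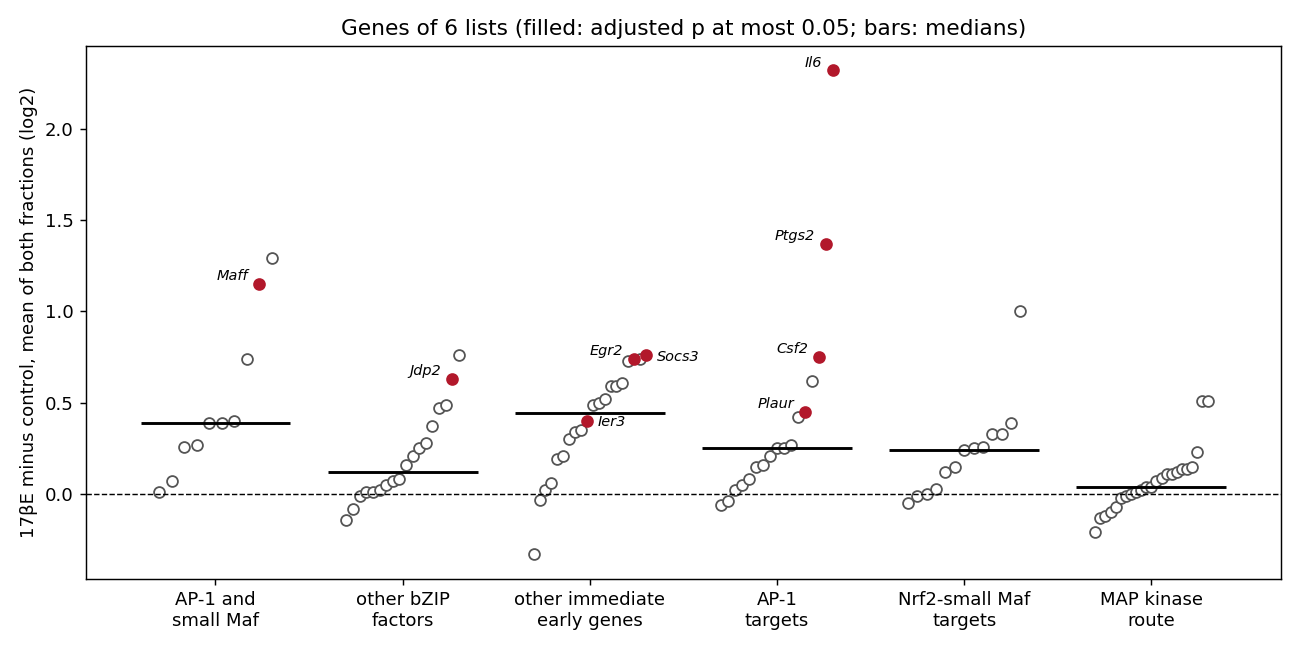
Difference between 17βE and control in the mean of both fractions (log2) for the genes of 6 lists. Each point is a gene, filled and named where its adjusted p was at most 0.05, and bars are list medians: 0.39 for the 10 AP-1 and small Maf genes, 0.45 for the other immediate early genes and 0.04 for the MAP kinase route.

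Genes with the nearest pattern to Maff were sought over all 12 arrays, with each gene centred on its own mean and the root mean square distance as the measure. Pde4b, a phosphodiesterase that breaks down cyclic AMP, lay nearest, at 0.147, followed by Prdm1, a transcriptional repressor of lymphocytes and macrophages, at 0.189 and Zc3h12c, a zinc finger gene, at 0.216. The root mean square of Maff about its own mean was 0.651. Since the 12 values chose these genes, their 17βE differences are descriptions: in the mean over both fractions 1.13 for Pde4b, 0.97 for Prdm1 and 1.06 for Zc3h12c. The nearest to Fosb was Gem, a small GTP-binding protein, at a distance of 0.459 against 0.985 for Fosb about its own mean. For Atf3 the nearest were Ier3 at 0.122, B4galt5 at 0.124 and Jun, itself one of the 10, at 0.125, against 0.295. Fos, which spread little (0.162), had Mad2l1, Trappc2 and Cbx1 at 0.072 to 0.083, and Jun (0.251) had Dcp1a, Lrrc41 and Med1 at 0.097 to 0.10.

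**Figure D5:**
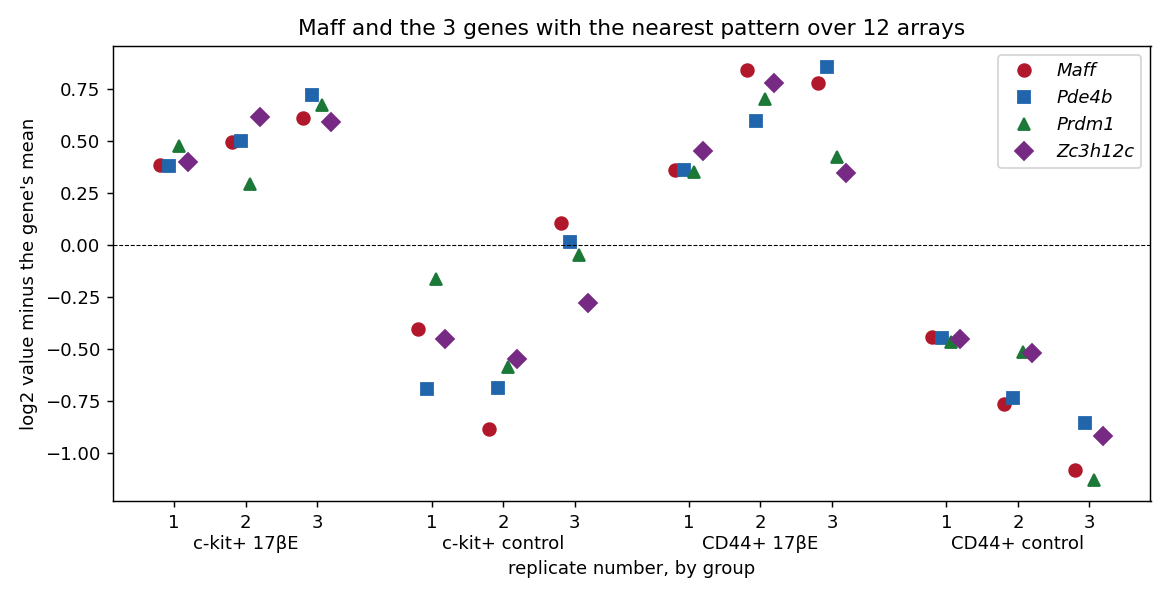
Maff, Pde4b, Prdm1 and Zc3h12c on the 12 arrays, each as its log2 value minus the gene's mean over all arrays. All 4 genes lie above 0 on all 6 17βE arrays, and on the control arrays only c-kit+ control replicate 3 brings Maff and Pde4b to or above 0.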

How the data were processed

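Per the labels, RNA of 12 samples went through 2 cycles of amplification before biotin labelling and hybridization to Affymetrix arrays. The authors deposited log2 values. Per the submitters' processing notes they were made with RMA, a method that subtracts background, equalizes the arrays' distributions by quantiles and summarises each probe set. Its version and the genome build are not given in the sources used here. Array medians lay between 4.75 and 4.84. The number of arrays limits the precision. Quantile normalization fixes each array's distribution, so only changes relative to the other genes are seen.

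Of 45101 probe sets, 64 were controls, 34945 named 1 gene, 932 several and 9160 none here. A gene was its brightest probe set, with no filter, which gave 18193 genes. Probe sets naming several genes named 0 of the 10 genes. Limma 3.58.1 in R 4.3.3 fitted 4 group means over 12 arrays, with empirical Bayes moderation and Benjamini-Hochberg adjustment over all 18193 genes, threshold 0.05. The 6 comparisons were 17βE minus control in each fraction and in their mean, the difference of effects between the fractions, and the levels of c-kit+ minus those of CD44+ cells at either culture condition. Standard errors and 95% intervals are those of the moderated fit. The 3 nearest genes were named for Fos, Fosb, Jun, Atf3 and Maff. From each further list the text could name the genes that passed and the 4 of smallest p. Array medians, tables and figures came from Python 3.11.15 and pandas 2.3.3. The 10 genes and the lists were chosen with earlier results of these data known. The fit was tested on simulated data with independent noise on each array, and no noise shared between arrays was simulated. Of changes of 0.5 it recovered 30% in c-kit+ cells, 34% in CD44+ cells and 72% in the mean. Of changes of 1 it recovered 82%, 80% and 92%. The changed genes were drawn from all genes, whose median spread within groups was 0.16. That of Fosb was 0.71, of Junb 0.57 and of Maff 0.33. The simulated fits called 156, 163 and 190 genes, against 33, 53 and 173 in the data. These shares hence do not give the recovery to be had for genes as variable as Fosb, Junb and Maff. Some list entries were not analysed here.

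The replicate numbers come from the labels, which name no shared culture or day. Deviations from group means correlated, at equal numbers, at 0.303, 0.368 and 0.322 between CD44+ 17βE and CD44+ control arrays, and at 0.447, 0.192 and 0.312 between the fractions' 17βE arrays. All of these exceed 0.1, so the numbers were taken to pair those arrays. The same held between c-kit+ 17βE and CD44+ control arrays (0.31, 0.142 and 0.213). By this cutoff they did not pair c-kit+ 17βE with c-kit+ control arrays (0.345, 0.092 and 0.253) or the fractions' control arrays (0.175, 0.122 and -0.208). Nor did they pair c-kit+ control with CD44+ 17βE arrays (0.263, -0.059 and 0.158). The main fit took no account of pairing, and the replicate number entered only as an alternative. Within groups, arrays differed by a root mean square of 0.209 to 0.428, so no array was a copy of another. As alternatives, genes were averaged over their probe sets, every probe set was tested, or genes below the median level were left out. Arrays were quantile-normalized again, centred on their medians, weighted or left out in turn. Moderation was made robust with a trend. The Gapdh measure or the replicate number entered the fit, the 6 arrays of a comparison were fitted alone, fractions were averaged first, and the threshold was set at 0.1.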

Additional observations from a re-analysis of the deposited data

How the results depend on the processing

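Maff in the mean over both fractions passed in all 23 alternatives, and in CD44+ cells in 19 of 23. In c-kit+ cells it passed in 2 of 23, array weights (1.01, adjusted p = 0.0439) and the fit without c-kit+ control replicate 3. Fosb passed in 4 of 23 in the mean and in 2 of 23 in CD44+ cells (array weights, adjusted p = 0.00336, and the 6 arrays alone, 0.0245). Single-gene results of the 10 other than those of array removal kept side and direction in 613 cases, passed newly in 12 and turned sign in 25. With arrays left out 668 kept both, 4 passed newly, 4 no longer passed and 44 turned sign. The cause was not tested.

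Leaving out each array in turn gave 10 to 45 called genes in c-kit+ cells, 22 to 97 in CD44+ cells and 104 to 275 in the mean, against 33, 53 and 173 with all arrays. The highest of each, 45, 97 and 275, came without c-kit+ control replicate 3. Counts moved by over 1.5 times in c-kit+ cells without c-kit+ 17βE replicate 2 (10) or 3 (21), in CD44+ cells without CD44+ 17βE replicate 2 (29) or 3 (22) or CD44+ control replicate 2 (29) or 3 (30), and in the mean without CD44+ 17βE replicate 2 (110) or 3 (104) or c-kit+ 17βE replicate 2 (104). Of the 10 genes 0 to 1, 0 to 1 and 1 to 2 were then called. The difference of effects had 0 genes throughout. The c-kit+ minus CD44+ comparison had 221 to 456 genes in control cultures (418 with all arrays) and 269 to 594 in 17βE cultures (483 with all arrays), with 0 of the 10. Low counts came without CD44+ control replicate 3 (221) or c-kit+ control replicate 1 (238), and in 17βE cultures without CD44+ 17βE replicate 1 (273) or c-kit+ 17βE replicate 2 (269). In c-kit+ cells sign turned for Fos (-0.02 to 0.17), Fosl2 (-0.0029 to 0.36) and Jund (-0.05 to 0.28), in CD44+ cells for Fos (-0.22 to 0.09) and Jund (-0.05 to 0.05), and in the mean for Fos (-0.08 to 0.07) and Jund (-0.02 to 0.14). It did so for the difference of effects of Atf3 (-0.22 to 0.13), Fos (-0.03 to 0.27), Fosb (-0.79 to 0.27), Jun (-0.18 to 0.16), Junb (-0.11 to 0.94), Jund (-0.06 to 0.27), Mafg (-0.18 to 0.34) and Mafk (-0.15 to 0.06). Between the fractions it did so in control cultures for Fos (-0.19 to 0.11), Junb (-0.91 to 0.14), Jund (-0.19 to 0.14), Mafg (-0.20 to 0.32) and Mafk (-0.19 to 0.02), and in 17βE cultures for Junb (-0.13 to 0.26).

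With the replicate number as a block, 62 genes passed in c-kit+ cells, 101 in CD44+ cells and 272 in the mean, and 693 between the fractions in control cultures. With this block Fosb passed in the mean (adjusted p = 0.0409), so 2 of the 10 did, and no other call among the 10 changed. On fraction means, 3 against 3, Fosb did not pass (adjusted p = 0.219). Array weights gave 55 genes in c-kit+ cells with 1 of the 10, 1405 in CD44+ cells with 5, 523 in the mean with 4, 1058 between the fractions in control cultures with 1 (Atf3), and 779 in 17βE cultures. These weights ran from 0.254 for c-kit+ control replicate 3 to 9.377 for CD44+ control replicate 2. With the 6 arrays alone, 2 genes passed in c-kit+ cells, 196 passed between the fractions in control cultures, and 2 of the 10 in CD44+ cells. A threshold of 0.1 gave 54, 88 and 671 genes in c-kit+ cells, in CD44+ cells and between the fractions in control cultures. In the mean, every probe set tested gave 275 calls, fraction means gave 103, and the Gapdh covariate gave 2 of the 10. That covariate gave 254 genes between the fractions in control cultures, and 250 passed in 17βE cultures among genes at or above the median level.

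Sign turned under array weights for Jund in CD44+ cells (-0.06), Fos (-0.04) and Jund (-0.01) in the mean, Jun (-0.13) and Mafg (-0.07) in the difference of effects, and Junb (0.10) and Jund (0.01) between the fractions in control cultures. Under quantile normalization it turned for Jund in CD44+ cells (-0.14), Fos (-0.07) and Jund (-0.02) in the mean, Atf3 (0.08) and Mafk (0.01) in the difference of effects, and Mafg (-0.06) between the fractions in control cultures. Median centring turned Fos in the mean (-0.0036), Jun in the difference of effects (-0.03) and, in control cultures, Fos (0.08), Jund (0.05) and Mafk (0.03). The mean of probe sets turned Jund in CD44+ cells (-0.06) and Mafg in the difference of effects (-0.02). The Gapdh covariate turned Mafg (-0.23) in control cultures and Fos (-0.14), Junb (-0.40), Jund (-0.03) and Mafg (-0.08) in 17βE cultures. Median centring moved the calls between the fractions in control cultures to 240 higher and 281 lower in c-kit+ cells (98 and 320 as deposited), and the median of all genes there to 0.104, against 0.005. In 17βE cultures it gave 110 higher and 374 lower (59 and 424 as deposited).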
